A study of Mus musculus with 12 samples.

Results

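Ligands, receptors, antagonists and effectors of the Wnt pathway were described in mouse tongue at embryonic day 13.5. Members were chosen by symbol: every gene called Wnt, Fzd, Sfrp or Dkk with a number, every Rspo gene, and 17 further genes by name. Of these, 58 were among the 18193 genes analysed (Tcf7 was not analysed here), and 1 of the 58, Fzd10os, is an antisense RNA and not a receptor gene. Total RNA of whole tongue from C57BL/6J embryos was hybridised to Affymetrix Mouse Genome 430 2.0 arrays, 1 array per sample, with 6 arrays per genotype that the labels number as biological replicates. Control embryos were Myf5-Cre;Smad4flox/+ and mutant embryos were Myf5-Cre;Smad4flox/flox. Both genotypes thus carried the Cre recombinase of the muscle determination gene Myf5 and at least 1 floxed copy of Smad4, the nuclear partner of the SMADs that carry TGF-β and BMP signals, and no embryo without Cre was analysed. Cre acts in cells that have expressed Myf5, so mesenchyme, epithelium, nerve and vessels of the mutant tongue can keep Smad4. The labels do not tie samples to litters or say how many tongues each holds, so p-values measure the spread between these samples.

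Wnt proteins are secreted lipid-modified ligands that bind Frizzled receptors together with the co-receptors Lrp5 and Lrp6. In the canonical branch this stops the breakdown of β-catenin, which enters the nucleus and activates genes with TCF and LEF factors, while other branches act on cell polarity and movement without β-catenin. R-spondins, through Lgr receptors, keep Frizzled receptors on the cell surface, and secreted antagonists hold ligands or co-receptors back. In the developing tongue Wnt signals from epithelium and mesenchyme are known to act in taste papilla formation and outgrowth of the organ.

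Values are log2 signals of the brightest probe set of each gene. A difference is mutant minus control, given with its standard error, so that 1 unit is a doubling. A gene was called when its limma p, adjusted by Benjamini-Hochberg over all 18193 genes, was under 0.05. For further probe sets of a gene the limma p was adjusted over every probe set with 1 symbol, and is given as the probe-set adjusted p. Signals of different probe sets cannot be ranked against each other, because probes differ in how well they bind. A probe set is called dim here when its mean lay under 6.13, the median of all probe sets. In whole-organ RNA, fewer cells of a type and less RNA per cell cannot be told apart.

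Several arrays stood apart. On the first principal component, which held 35.0% of the variance, mutants 1 and 2 lay farthest from the controls (24.7 and 20.3, against 2.90 for mutant 5, the nearest). Control 3, mutant 4 and mutant 6 carried signal of both the female transcript Xist and the Y-linked gene Eif2s3y. On the other arrays, Eif2s3y was at 3.14 to 4.01 where Xist was high, and at 8.93 to 9.34 where Xist was low (6.18 to 6.65). Control 3 had Xist at 12.40 with Eif2s3y at 6.03, mutant 4 had 8.73 with 9.03, and mutant 6 had 7.88 with 8.88. Signal of 18S ribosomal RNA was lowest on control 6 and mutant 6 (13.54 and 12.98, against 14.03 to 14.28 on the others). Smad4 was not called, at 12.29 ± 0.07 in controls and 12.14 ± 0.27 in mutants (SD, n = 6 each; difference −0.15 ± 0.10 SE, adjusted p = 0.427). Mutant 1 alone was low, at 11.58. The labels do not say which part of Smad4 these probes cover, so they do not check the deletion.

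The Wnt pathway changed in both directions in the mutant tongue, with more rises than falls. The ligands Wnt2, Wnt4 and Wnt5b, the receptors Fzd1 and Fzd3, the R-spondins Rspo1 and Rspo2 with the receptor Lgr5, the antagonists Dkk1 and Dkk3, the nuclear factor Lef1 and the target genes Axin2 and Sp5 rose. The receptors Fzd8 and Fzd9 and the antagonist Frzb fell. In counts, 13 of 58 members were called higher and 3 lower, or 22.4% and 5.17%, against 6.30% and 4.80% of all genes. In either direction the share was 27.6% of members, where the background was 11.1%. Among genes at or above the median signal, 16 of 49 members (32.7%) were called, against 14.8% of all such genes (8.58% higher and 6.26% lower). An unadjusted p under 0.05 was found for 28 of 58 members, where the background was 24.8%. The median difference over the 58 members was 0.07, and over all genes 0.01. The groups did not overlap for 8 members (13.8%), where 6.30% of all genes showed no overlap. Changes were small: the largest rise was 1.54-fold, of Rspo1, and the largest fall 1.41-fold, of Fzd9.

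**Figure D1:**
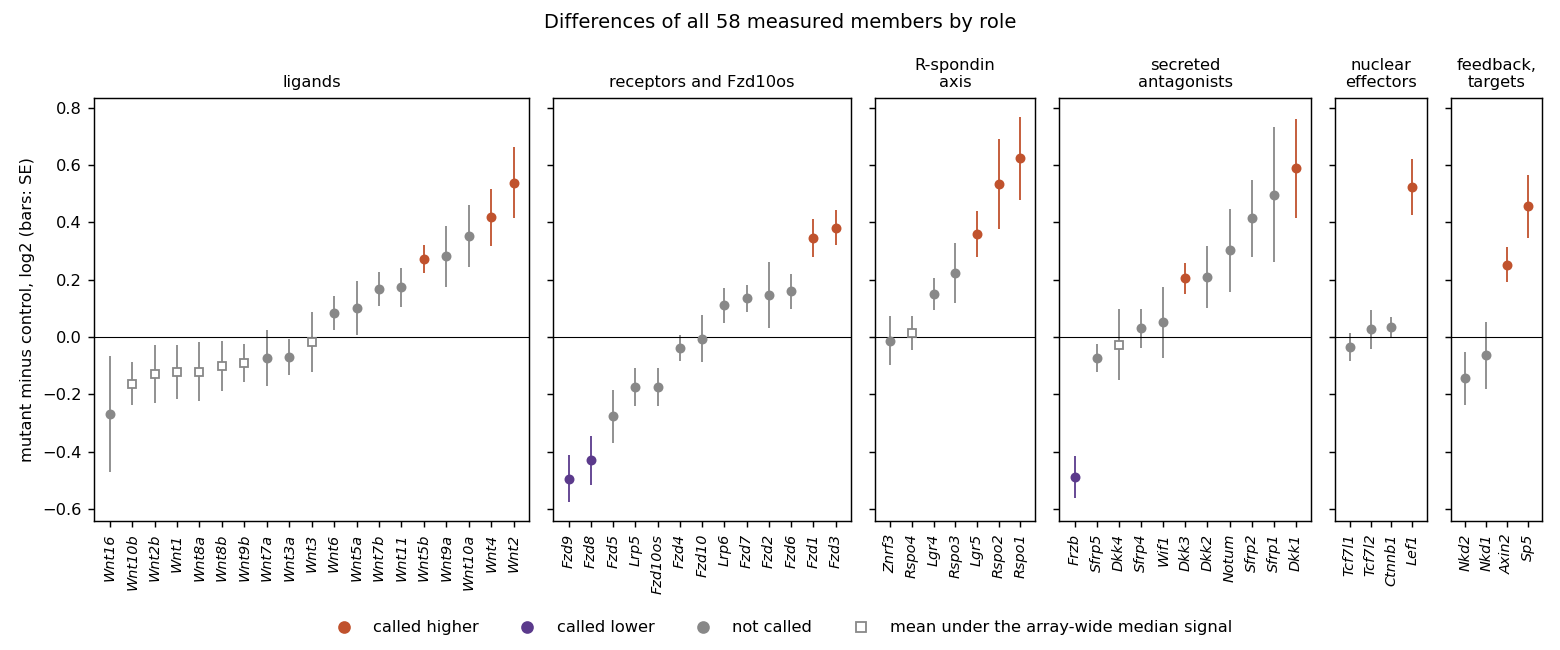
Difference between mutant and control (log2, bars give the SE) of each of the 58 members, ordered within its role, with 6 arrays per group; colours mark calls at an adjusted p under 0.05 and open squares mark dim probe sets. Calls in both directions are seen among receptors and antagonists, and calls of the other roles are rises. The 7 dim ligands all lay below 0, between −0.16 and −0.02, and none was called.

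Among the 19 ligands, 3 rose, none fell and 16 were not called. The share called was 15.8% of ligands, against 11.1% of all genes. At or above the median signal these shares were 25% and 14.8%. Wnt5b, which acts mostly without β-catenin, read 7.37, 7.50 and 7.57 in controls (lowest, median and highest) and 7.64, 7.78 and 7.81 in mutants. Every mutant array was above every control, and the rise was 0.27 ± 0.05 (adjusted p = 0.00292). Wnt2, a mesenchymal ligand in several organs, ran from 6.94 through 7.13 to 7.30 in controls and from 7.31 through 7.57 to 8.04 in mutants. The groups did not overlap, though narrowly, and mutants 1 and 2 were highest (8.04 and 8.03), with a rise of 0.54 ± 0.12 (adjusted p = 0.0127). Wnt4, which signals with or without β-catenin depending on the tissue, read 9.10, 9.48 and 9.60 in controls and 9.56, 9.86 and 10.07 in mutants. Mutant 5 lay within the control range and the other 5 mutants above it (0.42 ± 0.10, adjusted p = 0.0155). Its second probe set rose too, by 0.57 (probe-set adjusted p = 0.00207), while that of Wnt5b differed by 0.15 (probe-set adjusted p = 0.412). Wnt2 was measured by a single probe set. By an unequal-variance test Wnt2 had an adjusted p of 0.0663.

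The other 16 ligands were not called. Wnt10a, which acts in teeth and taste papillae, differed by 0.35 ± 0.11 (adjusted p = 0.0529), with 5 of 6 mutants above every control. It passed without mutant 5 (0.40, adjusted p = 0.0358) and without mutant 6 (0.40, adjusted p = 0.0361). Wnt7b, another epithelial ligand, differed by 0.17 ± 0.06 (adjusted p = 0.0878) and passed without mutant 5 (0.20, adjusted p = 0.0368). Wnt10b, from a dim probe set, differed by −0.16 ± 0.08 (adjusted p = 0.196). Its control values, 5.87 to 6.24, lay above 5 of 6 mutants, and it passed without mutant 2 (−0.22, adjusted p = 0.0453). Wnt9a (0.28 ± 0.11), Wnt11 (0.17 ± 0.07) and Wnt6 (0.08 ± 0.06) were above 0 and not called.

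Wnt5a, the ligand needed for outgrowth of limbs and face, differed by 0.10 ± 0.09 (adjusted p = 0.565). The mutants, at 11.57 to 12.01, lay within or just above the range of the controls. Wnt16 had the lowest difference of the ligands, −0.27 ± 0.20, with mutant 6 at 5.45 and the other mutants at 6.39 to 6.91. Wnt3a and Wnt7a each differed by −0.07. The dim ligands were Wnt1, Wnt2b, Wnt3, Wnt8a, Wnt8b, Wnt9b and Wnt10b. For those genes a change in tissue would be compressed on this scale.

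Of 12 receptors and co-receptors, 2 rose, 2 fell and 8 were not called (33.3% called, against 11.1% of all genes). Fzd3, a Frizzled of the polarity branch that guides growing axons, read 10.42, 10.59 and 10.71 in controls and 10.87, 10.97 and 11.01 in mutants. All mutants lay above all controls (0.38 ± 0.06, adjusted p = 0.00141). Fzd1 went from 11.26, 11.45 and 11.51 to 11.58, 11.77 and 11.95, again without overlap (0.34 ± 0.07, adjusted p = 0.00461). The dimmer probe sets of both genes, 5 of Fzd3 and 1 of Fzd1, differed by 0.04 to 0.25, all above 0 and none called.

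The falling receptors were Fzd9 and Fzd8. Fzd9 read 8.21, 8.55 and 8.61 in controls and 7.81, 8.01 and 8.15 in mutants, and every mutant was below every control (−0.49 ± 0.08, adjusted p = 0.00178). Fzd8 read 9.68, 10.04 and 10.11 in controls and 9.40, 9.53 and 9.79 in mutants (−0.43 ± 0.09, adjusted p = 0.00597). Control 1, the lowest control, lay among the mutants, and 4 of 6 mutants were below it. A second Fzd8 probe set fell by 0.61 (probe-set adjusted p = 0.0262). Fzd5 differed by −0.28 ± 0.09 (adjusted p = 0.0730) and passed without control 1 (−0.35, adjusted p = 0.0101) and without mutant 5 (−0.32, adjusted p = 0.0474).

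The remaining Frizzleds were not called. Fzd7, which binds Wnt7a on muscle stem cells, differed by 0.13 ± 0.05 (adjusted p = 0.0763) with 5 of 6 mutants above every control. A second Fzd7 probe set differed by −0.06 ± 0.08. Fzd6 differed by 0.16 ± 0.06, Fzd2 by 0.15 ± 0.12, Fzd4 by −0.04 ± 0.05 and Fzd10 by −0.01 ± 0.08. Further Fzd4 probe sets differed by −0.20 (probe-set adjusted p = 0.210) and −0.21 (0.148), and dim ones of Fzd6 by −0.05 and −0.07. Neither co-receptor was called: Lrp5 differed by −0.17 ± 0.07 (adjusted p = 0.122) and Lrp6 by 0.11 ± 0.06 (0.287), with a second Lrp6 probe set at −0.05. Lrp6 passed without control 6 and mutant 6 together (0.18, adjusted p = 0.0405). Fzd10os, transcribed opposite Fzd10, differed by −0.17 ± 0.07 (adjusted p = 0.119).

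The R-spondin axis held 3 rises among 7 members and no fall (42.9% called, against 11.1% of all genes). Rspo1, a secreted enhancer of Wnt signalling, read 8.74, 8.90 and 9.36 in controls and 9.11, 9.62 and 9.95 in mutants (0.62 ± 0.14, adjusted p = 0.0134). Control 1 stood above the other controls at 9.36, so that 4 of 6 mutants were above every control. Rspo2, which is needed for limb and craniofacial growth, read 9.28, 9.38 and 9.69 in controls and 9.53, 9.81 and 10.59 in mutants. Mutants 1 and 2 were highest, at 10.59 and 10.34, and the other mutants lay between 9.53 and 9.87 (0.53 ± 0.16, adjusted p = 0.0445). The call of Rspo2 ended without control 2, 3, 4, 5 or 6 or mutant 1, 2 or 4, with differences of 0.41 to 0.55 and adjusted p from 0.0637 to 0.0987. A dimmer Rspo2 probe set differed by −0.08. By an unequal-variance test Rspo1 had an adjusted p of 0.0550 and Rspo2 one of 0.139.

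Lgr5, an R-spondin receptor that is itself a Wnt target, read 9.27, 9.52 and 9.62 in controls and 9.67, 9.78 and 10.06 in mutants. The groups did not overlap (0.36 ± 0.08, adjusted p = 0.0120), though a dim second probe set differed by −0.09. Its relative Lgr4 differed by 0.15 ± 0.06 (adjusted p = 0.109), Rspo3 by 0.22 ± 0.10 (0.202) and the dim Rspo4 by 0.01 ± 0.06. Znrf3, the ubiquitin ligase that removes Frizzled receptors and that R-spondins block, differed by −0.01 ± 0.09. With a mean over all probe sets of a gene, Lgr5 differed by 0.14 (adjusted p = 0.213) and Rspo2 by 0.23 (0.174).

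**Figure D2:**
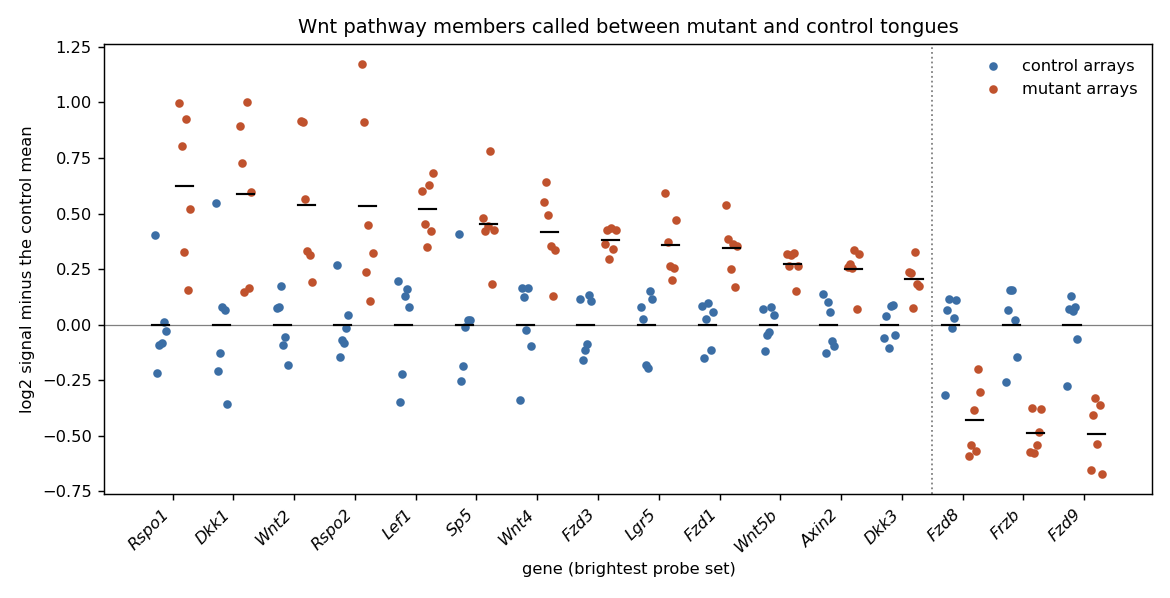
Log2 signal of the 16 called members on every array, minus the mean of the 6 controls, with a bar at each group mean; blue points are controls and red points mutants. The mutant points of Rspo1, Dkk1, Wnt2 and Rspo2 are widely spread, and those of Fzd3, Wnt5b and Axin2 are close together. The 13 rises stand left of the dotted line and the 3 falls right of it.

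Secreted antagonists changed in both directions, with 2 rises and 1 fall among 11 (27.3% called, against 11.1% of all genes). Frzb, a decoy for Wnt ligands made in skeletal precursors, read 6.55, 6.85 and 6.97 in controls and 6.23, 6.30 and 6.43 in mutants. Every mutant was below every control (−0.49 ± 0.07, adjusted p = 0.00117, the smallest among the members), while its dim second probe set differed by −0.20 (probe-set adjusted p = 0.258). Dkk1, which blocks the Lrp co-receptors and is induced by Wnt signalling, read 5.79, 6.12 and 6.70 in controls and 6.29, 6.81 and 7.15 in mutants. Control 1 was the high control and mutants 3 and 5 lay below it, so that 4 of 6 mutants were above every control (0.59 ± 0.17, adjusted p = 0.0412). A dim second Dkk1 probe set rose by 0.29 (probe-set adjusted p = 0.0416). The call of the brightest ended without control 2, 3, 4, 5 or 6 or mutant 1, 2, 4 or 6, with differences of 0.51 to 0.60 and adjusted p from 0.0620 to 0.0971, and the unequal-variance test gave 0.0997.

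Dkk3, a divergent Dickkopf protein, read 8.26, 8.36 and 8.45 in controls and 8.44, 8.57 and 8.69 in mutants (0.20 ± 0.05, adjusted p = 0.0225). Only mutant 3 was within the control range. Its call ended without control 3 (0.18, adjusted p = 0.0507), mutant 1 (0.20, 0.0531), mutant 2 (0.20, 0.0516) or mutant 4 (0.18, 0.0572), and with a mean over probe sets (0.17, 0.0542).

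The Sfrp genes encode decoys with a Frizzled-like domain. Sfrp2 differed by 0.41 ± 0.13 (adjusted p = 0.0626). It passed without control 6 (0.48, adjusted p = 0.0389), mutant 3 (0.48, 0.0369) or mutant 5 (0.46, 0.0487). Sfrp1 differed by 0.50 ± 0.24 (adjusted p = 0.213) with the widest spread of the members: controls ran from 9.23 to 10.79 and mutants from 10.45 to 11.23. Its 5 probe sets differed by 0.13 to 0.59, and their mean rose by 0.36 (adjusted p = 0.00558). Notum, an enzyme that strips the lipid from Wnt proteins and is itself a target, differed by 0.30 ± 0.14, and Dkk2 by 0.21 ± 0.11. Wif1, Sfrp4, Sfrp5 and the dim Dkk4 differed by −0.07 to 0.05.

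Lef1 was the nuclear effector that rose. It encodes the DNA-binding partner of β-catenin that is strongest in many inductive tissues and is also a Wnt target. Controls read 9.42, 9.87 and 9.96 and mutants 10.11, 10.29 and 10.45, with no overlap (0.52 ± 0.10, adjusted p = 0.00394). A dim second probe set differed by 0.33 (probe-set adjusted p = 0.104). β-catenin itself, Ctnnb1, was nearly level, at 14.18 ± 0.03 in controls and 14.21 ± 0.02 in mutants (SD, n = 6 each; 0.04 ± 0.03 SE, adjusted p = 0.597). Further Ctnnb1 probe sets differed by 0.06 ± 0.06 (probe-set adjusted p = 0.650) and 0.33 ± 0.22 (0.428). The other TCF genes lay near 0, with Tcf7l1 at −0.03 ± 0.05 and Tcf7l2 at 0.03 ± 0.07. Of 4 Tcf7l2 probe sets, a dim one fell by 0.34 (probe-set adjusted p = 0.00681), and this was the only case of an uncalled member with another probe set called.

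Target and feedback genes gave 2 rises and no fall among 4 (50% called, against 11.1% of all genes). Axin2, a feedback scaffold of β-catenin breakdown that is widely used as a readout of canonical signalling, read 8.96, 9.08 and 9.23 in controls and 9.16, 9.36 and 9.42 in mutants. Mutant 5 was within the control range and the other 5 mutants lay above it (0.25 ± 0.06, adjusted p = 0.0164). Sp5, a zinc finger factor and direct Wnt target, read 7.99, 8.25 and 8.65 in controls and 8.43, 8.68 and 9.03 in mutants (0.46 ± 0.11, adjusted p = 0.0166). Control 1 was again the high control, and mutant 5 alone lay below it. Nkd1 and Nkd2, feedback inhibitors that bind Dishevelled, differed by −0.06 ± 0.12 and −0.14 ± 0.09, and all of their 8 probe sets lay below 0 without a call. By an unequal-variance test Sp5 had an adjusted p of 0.0523. With a mean over probe sets, Axin2 differed by 0.19 (adjusted p = 0.0688).

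Promoter sequences were searched because several rising members are textbook targets of TCF and LEF factors. RefSeq sequences (GRCm38.p6) from 250 bases before to 50 after a start site were at hand for 38 of the 58 members. The TCF/LEF core was searched as CTTTGAT and CTTTGAA on both strands; they differ in the last base, so no site matches both. It was found in a promoter of 4 of these 38 members (10.5%), against 9.88% of all 27025 genes with such sequence. Of the 9 rising members with a sequence, Sp5, Wnt5b and Dkk1 held it, and so did Wnt11, which was not called. The palindromic SMAD element GTCTAGAC was in no member promoter and in those of 0.248% of all genes. The promoters that hold the core are given 5′ to 3′ on the strand of the gene, with the core in capitals.
Sp5: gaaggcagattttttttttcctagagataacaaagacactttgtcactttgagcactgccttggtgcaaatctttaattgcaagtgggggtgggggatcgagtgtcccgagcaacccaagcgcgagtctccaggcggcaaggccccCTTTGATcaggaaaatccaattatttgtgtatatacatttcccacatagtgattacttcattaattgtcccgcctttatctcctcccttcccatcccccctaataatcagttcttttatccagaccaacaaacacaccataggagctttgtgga
Wnt5b: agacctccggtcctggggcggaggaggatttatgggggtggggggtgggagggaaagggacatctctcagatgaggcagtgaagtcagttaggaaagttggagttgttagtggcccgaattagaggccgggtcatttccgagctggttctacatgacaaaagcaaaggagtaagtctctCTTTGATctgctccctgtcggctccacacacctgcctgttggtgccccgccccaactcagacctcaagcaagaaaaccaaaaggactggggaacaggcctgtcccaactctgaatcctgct
Dkk1: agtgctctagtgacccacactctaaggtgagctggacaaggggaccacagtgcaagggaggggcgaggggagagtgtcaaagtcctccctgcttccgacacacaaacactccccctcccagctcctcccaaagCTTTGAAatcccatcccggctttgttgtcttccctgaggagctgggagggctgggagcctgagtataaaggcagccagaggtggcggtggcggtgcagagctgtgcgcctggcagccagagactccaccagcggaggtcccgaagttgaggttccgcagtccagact
Wnt11: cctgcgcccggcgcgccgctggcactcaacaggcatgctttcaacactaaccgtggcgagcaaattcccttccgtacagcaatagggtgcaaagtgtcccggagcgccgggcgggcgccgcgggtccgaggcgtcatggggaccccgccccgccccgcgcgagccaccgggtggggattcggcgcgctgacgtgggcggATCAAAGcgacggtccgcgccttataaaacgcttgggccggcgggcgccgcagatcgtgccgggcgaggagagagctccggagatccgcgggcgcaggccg

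The Sp5 promoter is chr2:70474673-70474972, plus strand, and its core begins at position -104 from the start site. That of Wnt5b is chr6:119449337-119449636, minus strand, 1 of 3 start sites of the gene, with the core at -71. The Dkk1 promoter is chr19:30549447-30549746, minus strand, with the core at -117, and that of Wnt11, 1 of 2 start sites of the gene, is chr7:98834862-98835161, plus strand, where the core lies at -51 on the opposite strand. The promoters of Axin2 and Lef1 held neither form in these windows. A match of letters is a description only and shows no binding.

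The mutant arrays did not share the rises evenly. On mutants 1, 2, 4 and 6 all 13 rising members were above every control, on mutant 3 it was 9 and on mutant 5 it was 7. The mean of the 13 was 0.61, 0.53, 0.31, 0.50, 0.20 and 0.39 above the control mean on mutants 1 to 6. Mutant 4 was the highest array for 6 of the 13 and mutant 1 for 5. The 3 falling members together were lowest on mutant 1 (−0.61) and least lowered on mutant 5 (−0.35). Among controls, control 1 stood closest to the mutants, with means of 0.15 for the rising and −0.28 for the falling members. These members were chosen by their difference between the groups, so the means describe the arrays and test nothing.

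Markers of several cell types differed between the groups as well. Over all genes, 6.30% were called higher and 4.80% lower, and among those at or above the median signal 8.58% and 6.26%. Of 14 skeletal muscle markers, all at or above the median signal, 13 fell and none rose, and their mean signal ran from 12.14 to 12.61 in controls and from 11.47 to 11.94 in mutants. Mesenchyme markers rose in 7 of 12 cases, and the matrix genes Dcn and Lum fell. Their mean ran from 10.75 to 10.88 in controls and from 10.93 to 11.20 in mutants. Oral epithelium markers rose in 5 of 14 cases and none fell, with means of 9.89 to 10.22 and 10.18 to 10.53. Of 11 neuron markers 10 rose (means 7.75 to 8.07 and 8.20 to 9.10), and of 9 cartilage and bone markers 4 rose (6.74 to 7.03 and 7.11 to 7.28). Schwann cell markers gave 2 rises and 1 fall among 5 (8.45 to 8.73 and 8.69 to 9.04). Of 9 endothelium markers 1 rose (8.59 to 8.82 and 8.67 to 8.90), and of 9 macrophage markers 1 rose (8.80 to 8.96 and 8.91 to 9.13). For the endothelium and macrophage lists this is near the share over all genes. Dim probe sets were found for 1 of the neuron and 3 of the cartilage and bone markers, and for none of the other lists. Control 1 had the lowest muscle marker mean among controls (−0.30 from the control mean), as it had for the falling Wnt members. It was also the lowest control for oral epithelium markers (−0.19), which lay above 0 on all mutants. For mesenchyme (0.02) and neuron markers (−0.01) it lay near the control mean. The part of cell composition in the Wnt differences was not tested.

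**Figure D3:**
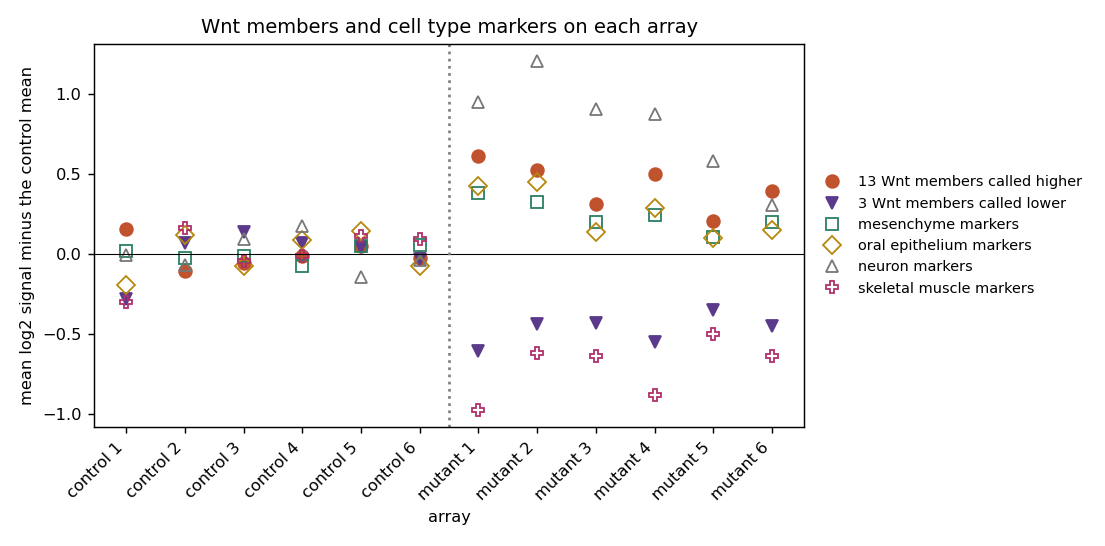
Mean log2 signal on each of the 12 arrays, minus the control mean, for the 13 rising and 3 falling Wnt members and for 4 marker lists. Muscle markers and the falling Wnt members lie below 0 on all 6 mutants, and the rising Wnt members, mesenchyme, epithelium and neuron markers lie above it, with mutant 5 lowest for the rising members at 0.20.

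The other genes of the pathway, 78 measured from 5 lists, gave 14 rises and 2 falls (20.5% called, against 11.1% of all genes, median 0.08). At or above the median signal lay 69 of the 78, all 16 called genes among them, and of all such genes 14.8% were called. Polarity and non-canonical genes rose in 5 of 17 cases (Prickle2, Ryk, Ror1, Vangl2 and Celsr3). Prickle2, a planar polarity protein, rose by 0.30 ± 0.06 (adjusted p = 0.00657) and Ryk, a Wnt co-receptor, by 0.22 ± 0.05 (0.0164). Of 14 genes of secretion and the cell surface, the glypican Gpc3 rose by 0.26 ± 0.05 (adjusted p = 0.00616) and its relative Gpc4 fell by 0.27 ± 0.06 (0.00874). The destruction complex and Dishevelled genes were nearly level, with 1 call among 14, of the ubiquitin ligase subunit Btrc (0.17 ± 0.05, adjusted p = 0.0473). Nuclear cofactors gave 2 rises among 16, of the corepressor Tle4 (0.23 ± 0.06, 0.0385) and of Tbl1x (0.15 ± 0.04, 0.0484). For the secretion, destruction complex and nuclear cofactor lists the shares called are near that over all genes. With a mean over probe sets, Btrc differed by 0.01 (adjusted p = 0.961), Tbl1x by −0.004 (0.985), Tle4 by 0.26 (0.0847) and Ryk by 0.09 (0.264), so that none of these passed. Ror1 (0.10, adjusted p = 0.372) and Vangl2 (0.12, 0.370) did not pass in that setting either. The same held for Msx1 (0.21, 0.0630) and Twist1 (0.31, 0.0509), which are responsive genes named below. Of 19 genes that respond to Wnt signals in some tissues, 5 rose (Sox9, Jag1, Bambi, Msx1 and Twist1) and Fgf9 fell. Sox9, which is also a cartilage marker here, rose by 0.44 ± 0.07 (adjusted p = 0.00218), the Notch ligand Jag1 rose by 0.35 ± 0.08 (0.0116), and Fgf9 fell by 0.70 ± 0.20 (0.0338; −0.37 without mutants 1 and 2). Msx1 and Twist1 of the responsive list are mesenchyme markers as well. Leaving out single arrays ended the calls of Btrc, Tbl1x and Ror1 in 10 of 12 cases, of Fgf9 and Twist1 in 9, of Tle4 in 7, of Vangl2 in 6 and of Celsr3 in 2, and left those of Prickle2, Ryk, Gpc3, Gpc4, Sox9, Jag1, Bambi and Msx1.

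Without the arrays that stood apart, all 16 called members kept their direction and fewer passed, with fewer samples tested. The 16 had been called on these same arrays, so a kept direction is no independent support. Without mutants 1 and 2, 8 passed: Wnt2, Wnt5b, Fzd1, Fzd3, Lef1, Fzd8, Fzd9 and Frzb. Wnt2 then rose by 0.35 and Lef1 by 0.52, while Rspo2 differed by 0.28 (adjusted p = 0.0966), Rspo1 by 0.48 (0.0840), Wnt4 by 0.33 (0.101), Lgr5 by 0.30 (0.0706), Sp5 by 0.46 (0.0734), Axin2 by 0.25 (0.0834), Dkk1 by 0.48 (0.205) and Dkk3 by 0.19 (0.119). Without control 3 and mutants 4 and 6, 5 passed: Wnt2, Wnt5b, Fzd3, Fzd9 and Frzb. Lef1 then differed by 0.41 (adjusted p = 0.0585), Fzd1 by 0.34 (0.0512) and Fzd8 by −0.40 (0.0527), and Wnt2 rose by 0.71. Without control 6 and mutant 6, Axin2 (0.22, adjusted p = 0.0598), Dkk1 (0.51, 0.110), Dkk3 (0.20, 0.0561) and Rspo2 (0.58, 0.0643) did not pass and the other 12 did. Fzd3, Fzd9, Frzb and Wnt5b kept their calls under all 24 alternatives, single arrays left out included.

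**Figure D4:**
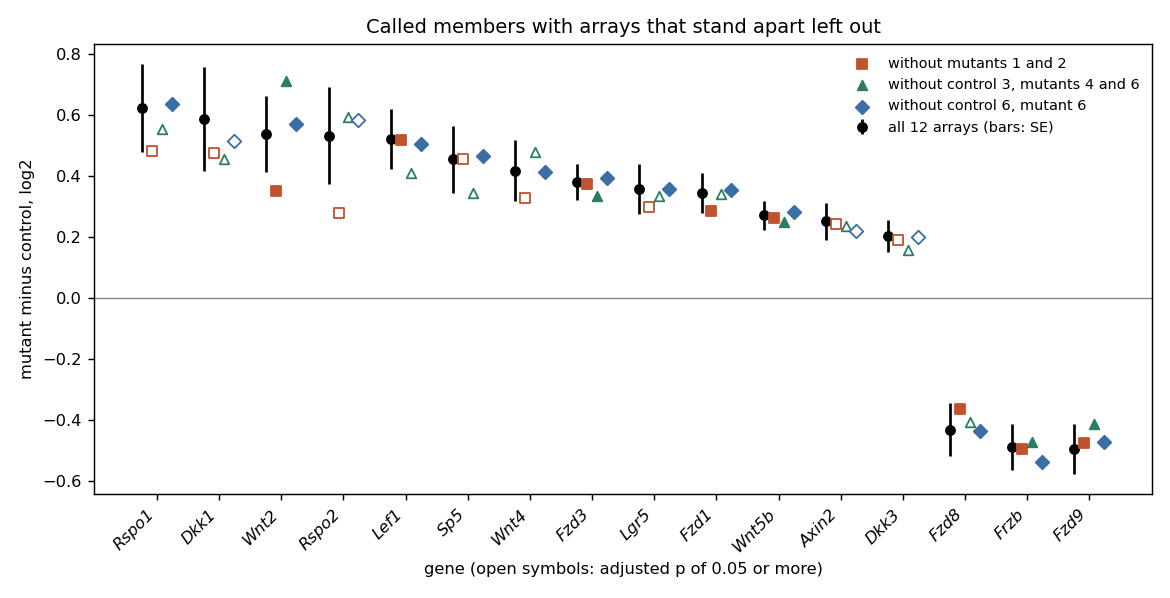
Difference between mutant and control (log2) of the 16 called members with all 12 arrays (black, bars give the SE) and with each of 3 sets of arrays left out; open symbols have an adjusted p of 0.05 or more. Every symbol stays on the side of 0 of its black point. The widest shifts are those of Wnt2 (0.35 to 0.71) and Rspo2 (0.28 to 0.59).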

How the data were processed

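The deposited values were log2 signals per probe set, made by the authors with RMA (background correction, normalisation between arrays, summary of probes), per the submitters' processing notes. No label names its software, and base 2 was taken from the range (2.57 to 15.09). RMA compresses changes of dim probe sets. Precision is limited by the number of arrays. No further normalisation was applied (array medians 6.10 to 6.18). Of 45101 probe sets, 64 controls were left out, 34945 had 1 symbol in GEO's platform annotation, 932 several and 9160 none. The probe set with the highest mean over 12 arrays stood for its gene. The genotypes were compared by limma 3.58.1 (R 4.3.3; genotype as the only term, 2-sided, Benjamini-Hochberg over 18193 genes); second probe sets were adjusted over all probe sets with 1 symbol. On data simulated for this comparison (18193 genes, 100 changed genes of each size), 88% of genes with a change of 0.5 and 96% of those with 1 were found. Noise was drawn as normal and independent between genes. Changes under 0.5 were not simulated, so these shares do not cover the smaller differences of many members.

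Members and lists were chosen with earlier results of these data known. All members may be named; of the other pathway lists, up to 2 passing genes per direction by smallest p, and the further passing genes named there were added after their values were seen. Alternatives were quantile normalisation, median centring, the mean of probe sets, every probe set, dim probe sets left out, trended and robust variance, array weights, a replicate block, an unequal-variance test, each array left out, and 3 sets of arrays left out. A free-text label that describes embryos of another kind was not used. Figures were drawn with matplotlib 3.10.9.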

Additional observations from a re-analysis of the deposited data

Results flagged for a closer look

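Within groups of 6 arrays, 8 of 116 gene and group pairs had a sample far from the others (the gap to the next, set against the group's range, above Dixon's critical value), where chance flags about 1 in 20. Mutant 5 was the low mutant of Axin2 (9.16, next 9.34) and of Wnt5b (7.64, next 7.75). Control 1 was apart 3 times: high for Rspo1 (9.36, next 8.96) and low for Fzd8 (9.68, next 9.98) and Sfrp1 (9.23, next 10.22). Wnt7b was low on control 6 (8.75, next 8.92), Wnt10b high on mutant 2 (6.13, next 5.81) and Wnt16 low on mutant 6 (5.45, next 6.39).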

How the results depend on the processing

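Of the 16 called members, none changed sign under the 24 alternatives, 13 kept the call with every single array left out, and 12 lost it under at least 1 alternative. All alternatives reuse arrays on which the 16 were called, so a kept sign is no independent support. The number of members called was 8 without mutants 1 and 2 and 5 without control 3, mutant 4 and mutant 6, and 13 to 20 with single arrays left out. Over all genes, 875 and 836 passed without these sets, against 2020, and 1398 to 2103 with single arrays left out. Of the 78 other pathway genes, 16 passed on all arrays, against 2020 of 18193 genes. With the mean of probe sets 9 passed (1646 of all genes), and with the unequal-variance test 10 (1394). Leaving out mutants 1 and 2, 4 passed (875), and leaving out control 3, mutant 4 and mutant 6, 1 passed (836). Leaving out control 6 and mutant 6, 10 passed (1890), and with single arrays left out 9 to 17 did. The larger share than over all genes was thus not kept in every setting. Rspo2 also missed the threshold with arrays centred on their medians (0.53, adjusted p = 0.0523), with trended and robust variance (0.0534) and with every probe set tested (0.0561), and so did Dkk1 in the last (0.0519). Without control 6 and mutant 6, 13 members passed, 12 of them among the 16 and the other Lrp6, and 1890 of all genes. Fewer samples were tested when arrays were left out, and the causes of lost calls were not tested for any setting. Among uncalled members, 8 passed under at least 1 alternative.

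The replicate numbers were not taken as pairs, because the labels name no batch or pairing. Deviations of same-numbered arrays from their group means still correlated above 0.1 in 5 of 6 pairs, and at −0.06 in pair 3. Of the 6 control arrays, 3 correlated best with their own number. Whether same-numbered arrays shared a batch or litter was not tested. With the replicate number as a block, 16 members, 13 other pathway genes and 1932 of all genes passed. Of these 1932 genes, 1663 were among the 2020 called without the block. The block ended the limma calls of Ryk (adjusted p = 0.0539), Ror1 (0.0555), Tbl1x (0.0774) and Btrc (0.111), so that 12 of the 16 other pathway genes kept theirs, and it ended no member's call.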
